A study of Mus musculus with 6 samples.

Results

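The 9 genes described here encode proteins of tight junctions: Cldn5, Ocln, Marveld2, F11r, Jam2, Jam3, Esam, Tjp1 and Cgn. They were taken by symbol from the 22026 genes for which FPKM was deposited, and all 9 symbols were found. FPKM is a read density, scaled to transcript length and here to the upper quartile of each library, not to its total size. The samples were choroid ECs of mice, taken at postnatal day 5 (P5) or postnatal day 30 (P30). The paper states strain (129/B6) and sex (both) where it describes the P30 mice, and not for the P5 mice. There were 3 independent isolations per age, the eyes of 7 animals being pooled in each, so that variation between animals within a pool is not seen. No mutation or treatment is named for either age. Mice of both ages received an injected antibody to VE-Cadherin, the adhesion protein of ECs by which the cells were then sorted. Handling was not the same, since the P5 mice were given less antibody and were cooled as their anaesthesia. For the P30 mice the paper names anaesthesia but not its method. These differences run with age, and their part in the results was not tested. Choroid ECs line the vessels behind the retinal pigment epithelium (RPE), and the comparison asks how their transcriptome differs before and after the period in which mouse vision matures.

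Tight junctions close the gap between neighbouring cells and limit what passes between them. Their strands are built from claudins, of which Cldn5 is the main one of ECs, together with MARVEL proteins such as occludin (Ocln) and tricellulin (Marveld2), the latter lying at the corners where cells meet. Adhesion proteins of the immunoglobulin superfamily stand beside the strands, namely JAM-A (F11r), JAM-B (Jam2), JAM-C (Jam3) and ESAM (Esam). Inside the cell, the scaffold ZO-1 (Tjp1) and cingulin (Cgn) tie the junction to actin. The choriocapillaris, the capillary bed next to the RPE, is fenestrated, and in the outer blood-retina barrier the tight seal is made by the RPE and not by these vessels.

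The genes lay on 6 chromosomes of the mm9 genome (GENCODE vM1). Cldn5 was at chromosome 16, 18776940 to 18778353, a gene of 1.41 kb with a single annotated transcript. Jam2 was on the same chromosome at 84774368 to 84826173, and Jam3 and Esam were both on chromosome 9, at 26904969 to 26963003 and 37335663 to 37345904. Ocln (chromosome 13, 101266462 to 101322673) and Marveld2 (chromosome 13, 101365912 to 101386926) were neighbours on the same strand, with 43.2 kb and 0 other protein-coding genes between them. F11r was on chromosome 1 (173367666 to 173394734), Tjp1 on chromosome 7 (72441051 to 72516125) and Cgn on chromosome 3 (94464507 to 94590414).

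The sequence just upstream of the start site is shown for a claudin, a MARVEL protein and a scaffold, because the deposited values of Cldn5 and Ocln were higher at P30 and those of Tjp1 higher at P5, although Cldn5 changed sign with quantile normalization. Each run holds the 250 bases before the RefSeq start, on the gene's own strand and 5′ to 3′, and lies on another build (GRCm38.p6) than the gene positions above. They are chr16:18776597-18776846 on the plus strand for Cldn5, chr13:100552719-100552968 on the minus strand for the upstream start of Ocln, and chr7:65371245-65371494 on the minus strand for Tjp1. Capitals mark GGGCGG (a GC box), CAGGTG (an E-box), CGGAAG (an ETS core), TATAAA and GTAAACA (a FOX site), or their reverse complements.
Cldn5: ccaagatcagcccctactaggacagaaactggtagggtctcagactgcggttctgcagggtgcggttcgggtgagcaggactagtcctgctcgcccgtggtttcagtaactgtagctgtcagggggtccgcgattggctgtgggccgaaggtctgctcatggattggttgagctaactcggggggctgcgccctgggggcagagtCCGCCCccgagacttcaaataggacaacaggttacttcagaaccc
Ocln: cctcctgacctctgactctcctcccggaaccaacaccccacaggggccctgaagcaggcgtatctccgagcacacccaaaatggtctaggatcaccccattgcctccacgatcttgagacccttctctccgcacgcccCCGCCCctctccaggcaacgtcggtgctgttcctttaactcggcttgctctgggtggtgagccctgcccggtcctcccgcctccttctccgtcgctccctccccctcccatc
Tjp1: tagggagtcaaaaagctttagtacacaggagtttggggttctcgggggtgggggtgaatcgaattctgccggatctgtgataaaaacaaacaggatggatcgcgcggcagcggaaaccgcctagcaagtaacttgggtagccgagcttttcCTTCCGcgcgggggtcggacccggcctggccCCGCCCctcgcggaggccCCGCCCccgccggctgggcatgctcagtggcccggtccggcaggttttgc

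In these windows the GC box was found once for Cldn5, once for Ocln and 2 times for Tjp1, which also held 1 ETS core. Of the 9 genes, 6 had an entry, with 8 windows in all, since Ocln and Marveld2 have 2 starts each, whose windows overlap. The GC box was in all 8 windows, against 32.7% of the 32851 promoter windows of the same length. The E-box was in 2 windows, those of F11r and of the downstream start of Ocln, against 17.2% of all windows. The ETS core was in 1 window (13.6% of all), TATAAA in 2, both of Marveld2 (12.4% of all), and GTAAACA in 0 (3.17% of all). The TATAAA of the 2 Marveld2 windows is the same site, and so is their GC box. The 8 windows held between 10 and 22 CpG dinucleotides, against a median of 6 over all windows. These matches describe the letters only.

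The sort was checked on marker genes. The least abundant of 10 endothelial markers, the transcription factor Erg, had a mean of 405 FPKM, and their summed FPKM was 20313 to 21980 at P5 and 24232 to 28392 at P30. RNA of other cells was also present. The summed FPKM of 8 RPE genes was 66.3 to 146 at P5 and 508 to 3804 at P30, highest in P30 replicate 1, and 6 of them were differentially expressed. That of 7 pericyte genes was 468 to 1712 at P5 and 1841 to 6228 at P30, highest in P30 replicate 2. Sums at P5 and P30 were 2.21 to 7.25 and 41.0 to 361 for 8 photoreceptor genes, 559 to 593 and 706 to 1451 for 6 smooth muscle genes, 725 to 1193 and 1777 to 4488 for 6 fibroblast genes, 12.9 to 51.4 and 60.2 to 306 for 5 Schwann cell genes, and 97.0 to 457 and 120 to 1251 for 5 melanocyte genes. They were 498 to 754 and 313 to 793 for 6 haematopoietic genes, and 422 to 483 and 44.1 to 187 for 5 platelet genes. Of these lists, 3 photoreceptor genes and 1 gene each of the pericyte, smooth muscle, fibroblast and Schwann cell lists were called higher at P30, 1 haematopoietic and 1 platelet gene were called higher at P5, and 0 endothelial or melanocyte genes were called by limma. Of 3 genes listed as tight junction genes of the RPE, Cldn10 was listed at 0 throughout, and Cldn19 and Tjp3 did not pass 3.49 FPKM in any isolation. In bulk RNA, fewer cells of a type and less RNA per cell cannot be told apart, and the part of these other cells in the differences below was not tested.

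Levels of the 9 genes differed widely. In mean FPKM, which is per transcript length, Cldn5 was highest at both ages and Esam followed it, and their ranges did not overlap with each other or with the next gene. At P5, F11r and Tjp1 overlapped with each other, as did Jam3 and Jam2. At P30 each neighbour overlapped along the run of F11r, Jam3, Tjp1 and Jam2. Ocln and Marveld2 lay far lower, overlapping at P5 but not at P30, and Cgn was last. Among all genes, the mean over the 6 isolations put Cldn5 at percentile 99.9, Esam at 99.7, F11r at 97.7, Tjp1 at 97.1, Jam3 at 95.2, Jam2 at 93.2, Ocln at 56.7 and Marveld2 at 50.3.

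**Figure D1:**
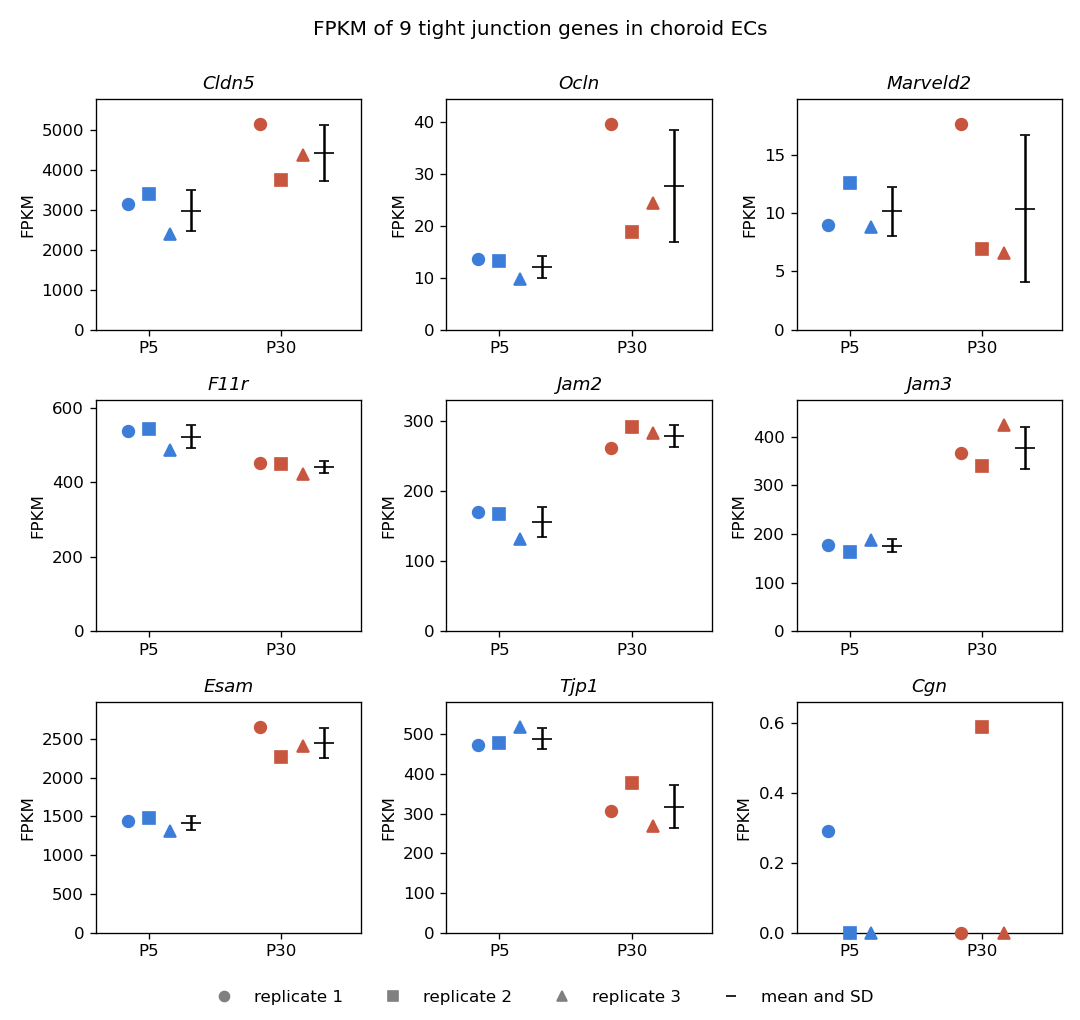
FPKM (vertical axes, each from 0) of the 9 genes in the 3 P5 and 3 P30 isolations. Symbols are isolations and bars the mean and SD, which are left out for Cgn since it was listed at 0 in 4 of 6 isolations. The ages separate for 7 genes, with Cldn5 (which changes sign with quantile normalization), Ocln, Jam2, Jam3 and Esam higher at P30 and F11r and Tjp1 higher at P5.

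In differential expression between ages, 3 of the 4 immunoglobulin superfamily genes (Jam3, Jam2 and Esam) rose from P5 to P30 by 1.73 to 2.14 times in mean FPKM, and the scaffold Tjp1 fell. Differences were tested with limma on log2(FPKM + 1) over the 12481 genes whose mean FPKM reached 5 at P5, at P30 or at both. A gene was said to rise or fall at a Benjamini-Hochberg adjusted p under 0.01, and was called differentially expressed if its mean FPKM + 1 also differed at least 2-fold. Of the 9 genes, 8 were tested, all with a mean of at least 5 at both ages, and Cgn was below this minimum. Of these 8, 3 rose and 1 fell, against 8.51% and 10.7% of all genes tested. With the 2-fold limit 1 gene, Jam3, was called higher at P30 and 0 were called higher at P5, against 5.89% and 5.82%. By limma, unadjusted p was under 0.05 for 7 of the 8 genes (all but Marveld2), with the higher values at P30 in 5 and at P5 in 2 (F11r and Tjp1), where the shares of all genes tested were 20.7% and 28.8%. As deposited, the median difference in log2(FPKM + 1), P30 minus P5, was 0.68 over the 8 genes and -0.10 over all genes tested. The contrast was smaller with quantile normalization. In order, the differences were then -0.78 (Tjp1), -0.42 (F11r), -0.19 (Cldn5), -0.06 (Marveld2), 0.33 (Esam), 0.80 (Jam2), 0.999 (Jam3) and 1.13 (Ocln). Their median thus lay between -0.06 and 0.33, against -0.08 over all genes tested. In the deposited values the ages did not overlap in 7 of the 8 genes. The higher values were at P30 in 5 and at P5 in 2, compared with 22.0% and 33.0% of all genes tested.

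Cldn5, the claudin whose loss opens the blood-brain barrier to small molecules, had an FPKM of 3148, 3399 and 2400 in P5 replicates 1, 2 and 3, and of 5167, 3749 and 4380 in P30 replicates 1, 2 and 3. The lowest P30 value lay above the highest P5 value, but P30 replicate 2 was only slightly above P5 replicate 2. The order of the P30 replicates (1, then 3, then 2) was that of the endothelial, haematopoietic and platelet sums, as it was for Ocln and Esam. The means were 2982 ± 520 (SD, n = 3) and 4432 ± 710 (SD, n = 3), a ratio of 1.49. The difference in log2(FPKM + 1) was 0.57 (SE 0.18, 95% interval 0.16 to 0.99) and did not pass the test (adjusted p = 0.0373 from limma). Its sign depended on the scaling, since quantile normalization, which gives all isolations the same distribution of values, turned it to -0.19 (adjusted p = 0.366).

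Cldn5 made up nearly all claudin expression. Its share of the summed FPKM of the 25 claudins in the files was 98.4%, 98.9% and 98.2% at P5 and 98.2%, 96.9% and 98.1% at P30. The share was different by -0.77 percentage points (P30 minus P5), with the ages just apart (exact two-sided permutation test, p = 0.1, or 0.133 adjusted over the 8 shares tested). Groups of 3 cannot give a p below 0.1 in this test. With 1 added to each FPKM the difference was -0.50 percentage points (exact two-sided permutation test, p = 0.5). Without P30 replicate 2 it was -0.36. Of the 24 other claudins, 13 were listed at 0 in all isolations and 4 were abundant enough to be tested.

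Among those 4, Cldn12, a widely expressed claudin, was called higher at P30. Its FPKM was 25.5, 20.5 and 20.1 at P5 and 45.1, 54.6 and 44.7 at P30 (difference in log2(FPKM + 1) 1.10, SE 0.16, adjusted p = 0.00254 from limma). Cldn1, a claudin of epithelia and skin, had 2.46, 0.70 and 4.74 at P5 and 20.2, 22.1 and 6.88 at P30, with no overlap but not past the test (difference 2.28, SE 0.59, adjusted p = 0.0210). Cldn11, known from myelin and the testis, and Cldn15, a claudin of the gut, did not pass either, with differences of 0.68 (adjusted p = 0.173) and 0.45 (adjusted p = 0.381).

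Of the MARVEL genes, Ocln had an FPKM of 13.5, 13.2 and 9.65 in the P5 replicates and of 39.7, 18.9 and 24.3 in P30 replicates 1, 2 and 3. All P30 isolations were above all P5 isolations, and P30 replicate 1 was well above the other two. The means were 12.1 ± 2.14 (SD, n = 3) and 27.6 ± 10.8 (SD, n = 3), the largest ratio among the tested members at 2.28. With this spread, the difference in log2(FPKM + 1) of 1.07 (SE 0.30, 95% interval 0.38 to 1.77) did not pass the test (adjusted p = 0.0263 from limma). Without P30 replicate 1 the difference was 0.79 (adjusted p = 0.0386 from limma). In that isolation the endothelial, RPE, photoreceptor, haematopoietic, platelet, Schwann cell and melanocyte sums were also the highest at P30. Their part in the difference was not tested.

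Marveld2, the neighbour of Ocln on the chromosome, had 9.02, 12.6 and 8.87 at P5 and 17.7, 6.92 and 6.57 at P30. P30 replicate 1 was the highest of all isolations and the other P30 isolations were below every P5 isolation, so the ages overlapped. The means were 10.2 ± 2.13 and 10.4 ± 6.35 (SD, n = 3), and the difference was -0.09 (SE 0.40, 95% interval -1.02 to 0.85, adjusted p = 0.877 from limma). The ratio of the means was 1.02, so that mean and log difference differ in sign. The sign also changed when single isolations were left out, the difference being 0.06 without P5 replicate 2, 0.11 without P30 replicate 2 and 0.14 without P30 replicate 3. Without P30 replicate 1 it was -0.51 (adjusted p = 0.168). Ocln made up 60.0%, 51.1% and 52.1% of the summed FPKM of Ocln, Marveld2 and Marveld3 at P5 and 69.1%, 73.2% and 78.7% at P30. This share does not depend on a factor common to all values of an isolation, and it was 19.3 percentage points higher at P30 with no overlap (exact two-sided permutation test, p = 0.1, adjusted 0.133). Marveld3 was listed at 0 throughout, so the share sets Ocln against Marveld2 alone. Marveld1, a MARVEL gene with a mean FPKM of 142 at P5 and 210 at P30, was not part of the sum.

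Among the JAM family, Jam3 had the smallest adjusted p of the 9 genes. JAM-C, its product, is found at junctions of ECs and also in Schwann cells and germ cells. Its FPKM was 177, 163 and 189 at P5 and 366, 339 and 424 at P30. The lowest P30 isolation was well above the highest P5 isolation. The Schwann cell sum was also higher at P30, and its part in this difference was not tested. The means were 176 ± 13.0 and 377 ± 43.5 (SD, n = 3), a ratio of 2.14, and the difference in log2(FPKM + 1) was 1.09 (SE 0.12, 95% interval 0.82 to 1.36, adjusted p = 0.000632 from limma). It passed the test under all 15 alternatives tried, with differences from 0.89 to 1.16. Among them, the fold limit on the limma coefficient acts only on calls and cannot change an adjusted p. Jam3 is close to the 2-fold limit and was not called under quantile normalization, with centring on endothelial markers or without P30 replicate 3. Under quantile normalization and with centring, the 2-fold limit was set on the limma coefficient and not on mean FPKM + 1.

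Jam2, whose product JAM-B binds JAM-C, had 169, 167 and 132 at P5 and 261, 291 and 283 at P30, again with a wide gap. The means were 156 ± 21.0 and 278 ± 15.4 (SD, n = 3), a ratio of 1.79, and the difference was 0.84 (SE 0.12, 95% interval 0.55 to 1.13, adjusted p = 0.00233 from limma). Its P30 replicates stood in the same order as the pericyte and fibroblast sums, replicate 2 being highest and replicate 1 lowest. Without P5 replicate 2 its adjusted p was 0.0111.

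Esam, an adhesion protein of ECs and platelets, had 1446, 1482 and 1309 at P5 and 2655, 2265 and 2410 at P30. The isolations of each age lay close together and far from those of the other age. The means were 1412 ± 91.2 and 2443 ± 197 (SD, n = 3), a ratio of 1.73, and the difference was 0.79 (SE 0.11, 95% interval 0.54 to 1.04, adjusted p = 0.00173 from limma). With quantile normalization it was 0.33 and did not pass the test (adjusted p = 0.0428), and it did not pass without P5 replicate 2 (0.83, adjusted p = 0.0113) or without P5 replicate 3 (0.74, adjusted p = 0.0108). The summed platelet genes were lower at P30 than at P5 in every isolation, as given above, and the part of platelets in the Esam values was not tested.

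F11r, which encodes JAM-A, differed from the other 3 in direction. It had 537, 543 and 486 at P5 and 453, 450 and 423 at P30, so the ages were apart by a small margin. The means were 522 ± 31.1 and 442 ± 16.6 (SD, n = 3), and the difference of -0.24 (SE 0.09, 95% interval -0.45 to -0.03) did not pass the test (adjusted p = 0.0712 from limma). It did pass with quantile normalization (-0.42, adjusted p = 0.00651).

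The composition of the family was therefore compared within each isolation, which removes any factor by which all values of an isolation are multiplied. Quantile normalization is not such a factor, and shares were not taken after it. F11r took 23.1%, 23.1% and 23.0% of the summed FPKM of the 4 genes at P5 and 12.1%, 13.4% and 11.9% at P30, a difference of -10.5 percentage points with a narrow spread at each age. Esam took 62.3% ± 0.577 at P5 and 69.0% ± 1.84 at P30 (SD, n = 3), and Jam3 took 7.81% ± 1.02 and 10.6% ± 1.17 (SD, n = 3). The ages did not overlap for these 3 shares (exact two-sided permutation test, p = 0.1 each, adjusted 0.133). Jam2 took 6.85% ± 0.556 and 7.89% ± 0.858 (SD, n = 3), with overlap (exact two-sided permutation test, p = 0.3). The 4 shares of an isolation add to 100%, so they are not independent of each other. The summed FPKM of the family was 2267 ± 131 at P5 and 3540 ± 195 at P30 (SD, n = 3).

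**Figure D2:**
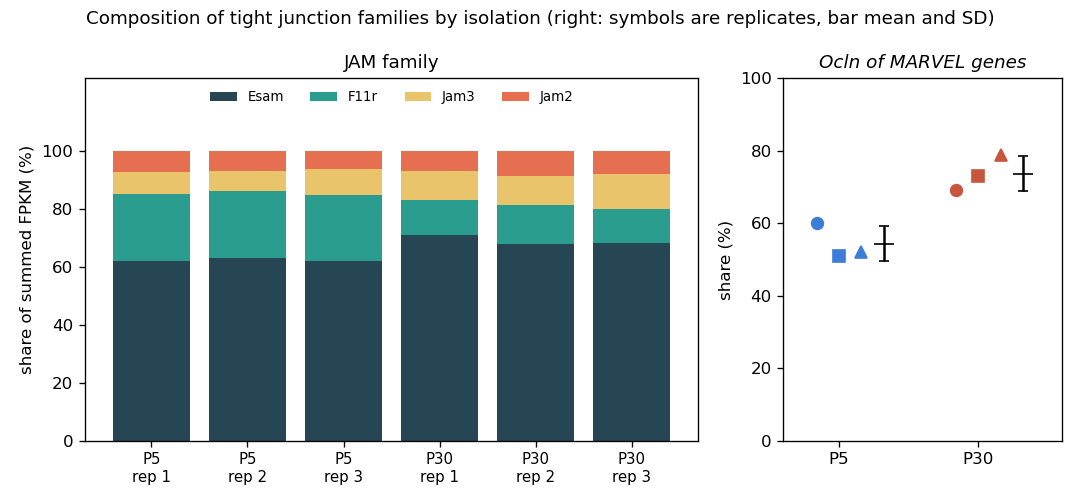
Share (%) of summed FPKM that each gene took of its family in each isolation. Left, stacked bars of Esam, F11r, Jam3 and Jam2 for the 6 isolations, in which F11r takes about 23.0% at P5 and between 11.9% and 13.4% at P30. Right, Ocln of the sum of Ocln, Marveld2 and Marveld3 (without Marveld1), with isolations as symbols and bars for the mean and SD.

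Of the scaffolds, Tjp1 fell. It had 472, 477 and 519 at P5 and 306, 377 and 269 at P30, the highest P30 isolation being below the lowest P5 isolation. The means were 489 ± 25.9 and 317 ± 54.6 (SD, n = 3), which is 1.54 times higher at P5, and the difference in log2(FPKM + 1) was -0.64 (SE 0.13, 95% interval -0.95 to -0.32). The adjusted p of 0.00967 from limma was just under the limit of 0.01, and it passed in 5 of the 15 alternatives, with adjusted p between 0.00246 and 0.0448 and the same direction in all of them. Among these 5 is the fold limit on the limma coefficient, which acts only on calls and so repeats the main adjusted p. Tjp3, which encodes the related scaffold ZO-3, was under 1 FPKM in all isolations.

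Cgn was listed at 0.29, 0 and 0 FPKM at P5 and at 0, 0.59 and 0 at P30, and no difference can be read from these values. Its paralogue Cgnl1 (paracingulin) had 216, 232 and 223 at P5 and 194, 205 and 111 at P30, so that Cgn took at most 0.287% of the sum of both in any isolation. The difference of Cgnl1 was -0.44 (SE 0.22) and did not pass the test (adjusted p = 0.153 from limma).

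**Figure D3:**
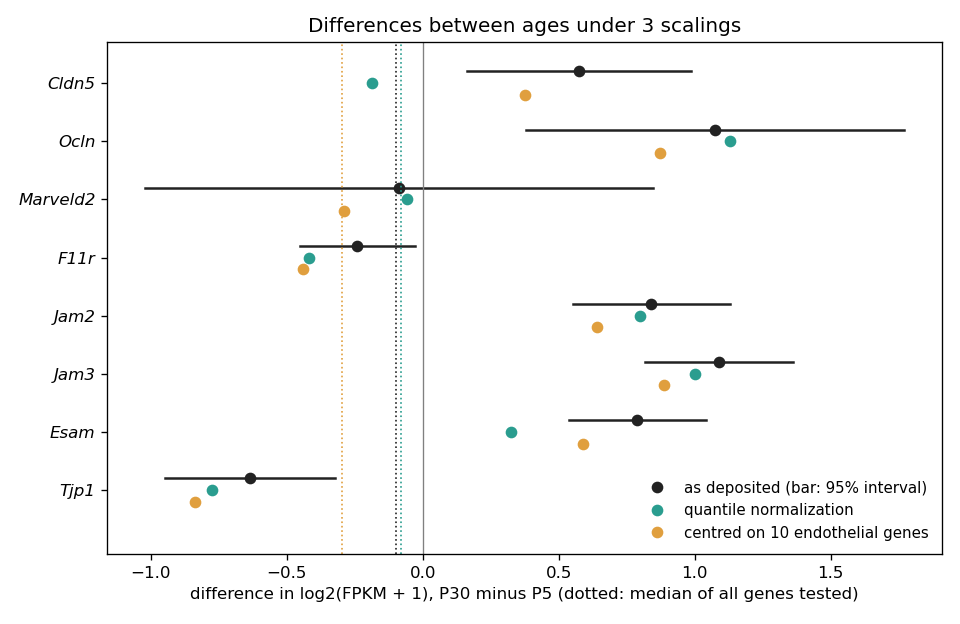
Difference in log2(FPKM + 1), P30 minus P5 (horizontal axis), of the 8 tested genes with the deposited scaling (black, with 95% interval), with quantile normalization (green) and with each isolation centred on 10 endothelial genes (yellow), where dotted lines are the median of all genes tested under each. Jam2, Jam3, Esam and Ocln stay to the right of 0 and F11r and Tjp1 to the left in all 3, and Cldn5 changes sign with quantile normalization.

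Because the summed endothelial markers were themselves higher at P30, values were also centred on those 10 genes. This moved the median difference of all genes tested from -0.10 to -0.30, shifted the members by the same amount, and changed the number of genes called higher at P30 and at P5 from 735 and 726 to 553 and 1082. The difference was then 0.37 for Cldn5, 0.87 for Ocln, 0.89 for Jam3, 0.64 for Jam2 and 0.59 for Esam, and it was -0.44 for F11r and -0.84 for Tjp1. The same 3 genes rose and Tjp1 fell (adjusted p under 0.01 in limma), and no member was called. For the calls after centring, the 2-fold limit was set on the limma coefficient.

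Other genes of the pathway were taken from a list of 62 by role, of which 30 were tested. Of these, 2 were called higher at P30, Cldn12 and Lsr, and 0 were called higher at P5, beside 5.89% and 5.82% of all genes tested. The same 2 were the only ones with an adjusted p under 0.01, beside 8.51% of all genes tested in that direction and 10.7% in the other. By limma with an unadjusted p under 0.05, 7 of the 30 had higher values at P30 and 6 at P5, beside 20.7% and 28.8% of all genes tested. The median difference was 0.01 over the 30 genes, with 15 above and 15 below 0.

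Lsr encodes angulin-1, which brings tricellulin to the corners where cells meet. It had 26.2, 25.5 and 7.76 FPKM at P5 and 120, 76.5 and 62.0 at P30 (difference 2.18, SE 0.46, adjusted p = 0.00962 from limma). Its P30 replicates stood in the same order as the RPE, photoreceptor, Schwann cell and melanocyte sums. Those of F11r and Marveld2 had this order too, those of Tjp1 that of the smooth muscle sum, and those of Jam3 that of no sum. With 3 replicates few orders are possible, and the cause of such matches was not tested. The call of Lsr was lost without any 1 of the isolations (differences 1.64 to 2.46), and also with a pseudocount of 0.1, with no filter, with a mean FPKM of at least 1 and with no trend (adjusted p from 0.0109 to 0.0210 by limma). That of Cldn12 was lost without P5 replicate 2, P5 replicate 3 or P30 replicate 2, with a pseudocount of 5, with centring on endothelial markers and with the replicate block (adjusted p = 0.0106 in the last). The other genes of its class did not pass, Marveld1, the most abundant of them, having 161, 151 and 115 at P5 and 230, 214 and 185 at P30 (difference 0.57, SE 0.15, adjusted p = 0.0243). Ildr1 was listed at 0.

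On the inner side of the junction, 0 of the 23 tested genes of the wider list passed in either direction by limma, beside 8.51% (higher at P30) and 10.7% (higher at P5) of all genes tested. The member Tjp1, which lies on this side and fell (adjusted p = 0.00967 from limma), is not among them. Among plaque scaffolds 9 of 11 were tested, 7 with a difference below 0, and the most abundant was Csda, the Y-box protein ZONAB that binds ZO-1, with a difference of -0.11 (adjusted p = 0.368 from limma). Among polarity genes 6 of 11 were tested, and the most abundant was Prkci, an atypical protein kinase C, with -0.35 (adjusted p = 0.0613). The smallest adjusted p in this class was that of Mpp5, the scaffold PALS1, which had a mean FPKM of 59.5 ± 0.445 at P5 and 40.6 ± 4.66 at P30 (SD, n = 3). The difference was -0.55 (SE 0.13, adjusted p = 0.0149). Mpp5 was picked after its values were seen. Among genes of plaque signalling all 8 were tested, and the most abundant was Arhgef2, the RhoA exchange factor GEF-H1 held at junctions by cingulin, with -0.19 (adjusted p = 0.330). Of adhesion genes related to the JAMs, 3 were in the files and none was abundant enough to be tested, Cxadr being the most abundant at 2.03 to 9.43 FPKM.

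**Figure D4:**
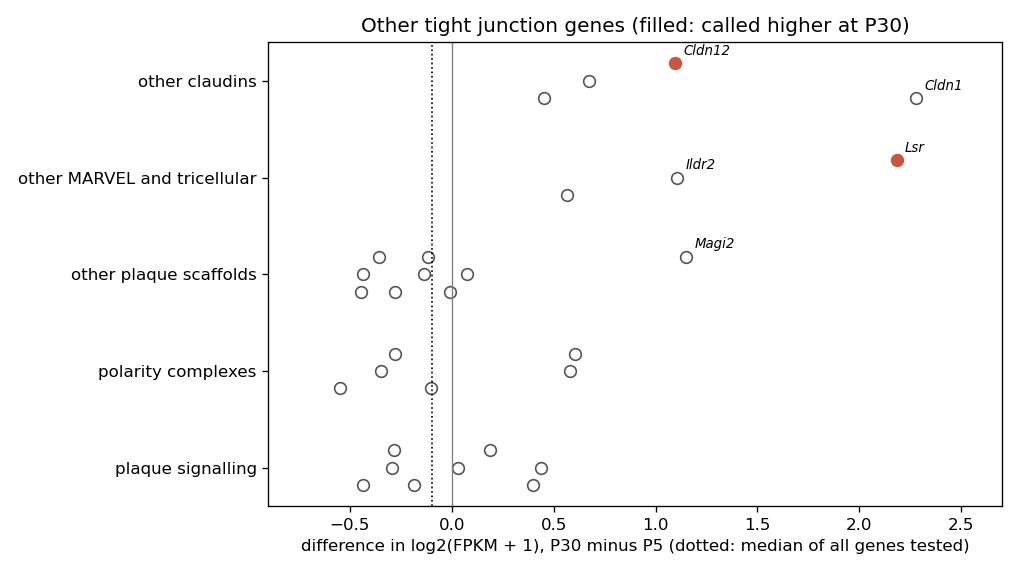
Difference in log2(FPKM + 1), P30 minus P5 (horizontal axis), of the 30 tested genes of the wider list by role, each point a gene, where filled points are the 2 called higher at P30 and the dotted line is the median of all genes tested. Cldn12 and Lsr are filled, and genes with a difference over 1 are labelled, among them Cldn1 at 2.28, which did not pass the test.

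The genes with the most similar pattern were found for Cldn5 and for Jam3, the member called, from the root mean square difference of log2(FPKM + 1), centred per gene, over the 6 isolations and 12473 other genes. For Cldn5 they were Lfng, a glycosyltransferase that modifies Notch receptors, at 0.055 (log2 units), Capn5, a calcium-dependent protease, at 0.060 and Fam109a at 0.076. Lfng had an FPKM of 130, 140 and 94.1 at P5 and of 221, 144 and 171 at P30, so it shared with Cldn5 a high P30 replicate 1 and a low P5 replicate 3. For Jam3 they were Trib1, a pseudokinase, at 0.056, Lama3, a laminin chain, at 0.067 and Ctdspl, a phosphatase, at 0.072. Trib1 had 105, 100.3 and 104 at P5 and 215, 199 and 235 at P30, with P30 replicate 3 highest as in Jam3. Lfng and Trib1 were picked for likeness over these same isolations, so the shared patterns are no separate result.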

How the data were processed

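RNA of sorted choroid ECs (TruSeq libraries, HiSeq2000) was processed by the authors with CASAVA 1.8.2, FastQC, TopHat with default settings on mm9, and Cufflinks with GC and upper quartile normalization, per the labels. The authors deposited FPKM per gene, 1 file per isolation. FPKM are not counts, read depth is unknown, and no interval from counting can be given. Values under 1 FPKM did not fall into steps of whole reads. Summed FPKM was 1432700 to 1734639 per isolation, and 33.4% to 37.3% of genes were listed at 0.

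Groups were taken from the age in the labels. Replicates are independent isolations of pooled animals. limma 3.58.1 (lmFit, eBayes with trend, R 4.3.3) was run on log2(FPKM + 1) for genes whose mean FPKM reached 5 at either age, with Benjamini-Hochberg adjustment over all genes tested. This fold change understates that of low genes. The authors' own count test could not be run on FPKM. Shares within a family were compared by exact two-sided permutation tests (scipy 1.17.1), and 1 of the 8 shares is not reported here. The script of the limma fit had been tested on simulated data. Python 3.11.15 (pandas 2.3.3, numpy 2.4.6, matplotlib 3.10.9) made the tables and plots.

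Named genes were the 9 members, genes of the wider list that were called, the most abundant gene of each role, and the 3 genes most like Cldn5 and each member called. Cldn1, Cldn11, Cldn15, Tjp3, Cgnl1, Marveld3, Ildr1 and Mpp5 were added after their values were seen. The members and all lists were chosen with earlier results of these data known. Alternatives were other pseudocounts (0.1 and 5), no filter or a mean FPKM of at least 1, no trend, quantile normalization, centring on 10 endothelial genes, the fold limit on the limma coefficient, a replicate block, and leaving out each isolation. The fold limit on the coefficient acts only on calls and leaves every adjusted p as it was. Under quantile normalization and centring, the 2-fold limit was also set on the coefficient. Shares were also taken after adding 1 to each FPKM. Promoter sequences are RefSeq's, and the 50 bases after each start were not searched.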

Additional observations from a re-analysis of the deposited data

How the results depend on the processing

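Of the 8 tested members, Jam3 and Ocln kept their direction and side of the adjusted p threshold under all 15 alternatives. Among these, the fold limit on the limma coefficient could change neither. With quantile normalization Cldn5 was -0.19, F11r -0.42 and Esam 0.33 in log2(FPKM + 1), the number of members called higher at P30 was 0, and 2 members had an adjusted p under 0.01 with higher values at P5. With centring on endothelial markers 0 members were called higher at P30. Tjp1 was -0.64 with an adjusted p above 0.01 under a pseudocount of 0.1, no filter, a mean FPKM of at least 1, no trend and the replicate block, and 0 members then fell. The wider list had 1 gene called higher at P30 under these 5 (Lsr with the replicate block and otherwise Cldn12), and under a pseudocount of 5 and centring on endothelial markers (Lsr). The causes were not tested.

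Over the genes tested, no pairing by replicate number was seen, as deviations from the age means correlated at -0.06, -0.09 and -0.03 between isolations of the same number. Such correlations cannot show whether isolations of the same number were prepared together. With the replicate block, 585 genes were called higher at P30 and 524 higher at P5 (735 and 726 without it), and Tjp1 had an adjusted p of 0.0225 by limma.

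Leaving out each isolation in turn gave -0.51 to 0.14 for Marveld2 (0.06 without P5 replicate 2, 0.11 without P30 replicate 2 and 0.14 without P30 replicate 3), 0.72 to 0.90 for Jam2, 0.73 to 0.84 for Esam and -0.77 to -0.52 for Tjp1. Members called higher at P30 ranged from 0 (without P30 replicate 3) to 1. Members that rose ranged from 1 (without P5 replicate 2) to 3 and those that fell from 0 to 1, as the adjusted p of Tjp1 stayed under 0.01 only without P30 replicate 2. The wider list had 0 to 2 genes called higher at P30. Over all genes, 396 to 849 were called higher at P30 and 291 to 754 higher at P5, with the lowest counts without P5 replicate 2 or 3. The share of Cgn differed by -0.0447 to 0.0988 percentage points, and was lower at P30 without P30 replicate 2.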
